A study of Mus musculus with 16 samples.

Results

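Transcripts of 7 genes that act on inhibitory receptors of T cells were followed across the immune, stromal and tumour cells of mouse melanomas. They are Cd274, Pdcd1lg2, Lgals9, Nectin2, Pvr, Vsir and Ido1, taken by symbol from the 32285 genes listed in each of the 8 deposited matrices, and all 7 were found in all 8. The study profiled CD45-enriched cells of subcutaneous B16 tumours (Bro4.1 line) from C57BL/6J mice by droplet single-cell RNA sequencing of 3' ends, in 8 lanes. Each mouse had received 1000000 tumour cells that were either control or null for B2m, the gene of the MHC class I light chain. Agonistic CD40 antibody, or rat IgG2a as the isotype control, was injected intraperitoneally at 100 µg on days 6, 9 and 12, and tumours were taken on day 14. Control tumours came from 5 isotype and 2 CD40 mice, and B2m-null tumours from 5 isotype and 4 CD40 mice. The sample labels give the genotype as that of the mouse and the design text gives it as that of the implanted cells; the design text was followed, so host cells carried an intact B2m in all 4 groups. Mice were told apart by hashtag antibodies within pooled lanes, and both lanes of the control CD40 group are technical repeats of 1 pool, so that pool cannot be told apart from its group.

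Inhibitory receptors on activated T and NK cells hold back killing and cytokine release when they meet their ligands on other cells. Cd274 and Pdcd1lg2 encode PD-L1 and PD-L2, the ligands of PD-1. Lgals9 encodes galectin-9, a ligand of TIM-3. Nectin2 and Pvr encode surface proteins that bind the inhibitory receptor TIGIT and also the activating receptor CD226. Vsir encodes VISTA, a surface protein abundant on myeloid cells that acts as a ligand of T cells and as a receptor. Ido1 encodes an enzyme rather than a ligand: it turns tryptophan into kynurenine, which dampens T cells. PD-L1 is known for its induction by interferon gamma on tumour and myeloid cells, and CD40 stimulation is known to license dendritic cells and activate macrophages.

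Cd274 (ENSMUSG00000016496) lies at chr19:29367455-29388095 on the plus strand of GRCm38, and Pdcd1lg2 (ENSMUSG00000016498) follows it on the same strand at chr19:29410919-29471161, 22824 bases beyond the end of Cd274. Nectin2 and Pvr lie near each other on the minus strand, at chr7:19716644-19750483 and chr7:19903578-19921160. Lgals9 lies at chr11:78962974-78984946 on the minus strand, Vsir at chr10:60346851-60372684 on the plus strand and Ido1 at chr8:24584136-24597009 on the minus strand. RefSeq promoter windows on GRCm38.p6, from 250 bases before to 50 after the start site, were at hand for 5 of the 7 genes, without Pvr and Ido1. Those of Cd274 and Nectin2, which rose under CD40 antibody in macrophages, and of Lgals9 are shown. Capitals mark matches, on either strand, to GAAANNGAAA, the core of the interferon-stimulated response element.

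Cd274 promoter, chr19:29367188-29367487, plus strand: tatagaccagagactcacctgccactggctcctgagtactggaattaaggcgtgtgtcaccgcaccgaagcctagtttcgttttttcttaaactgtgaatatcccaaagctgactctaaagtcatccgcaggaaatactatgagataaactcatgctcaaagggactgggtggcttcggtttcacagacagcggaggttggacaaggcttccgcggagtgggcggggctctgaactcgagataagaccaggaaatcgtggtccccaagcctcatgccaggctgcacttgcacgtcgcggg
Nectin2 promoter, chr7:19749524-19749823, minus strand: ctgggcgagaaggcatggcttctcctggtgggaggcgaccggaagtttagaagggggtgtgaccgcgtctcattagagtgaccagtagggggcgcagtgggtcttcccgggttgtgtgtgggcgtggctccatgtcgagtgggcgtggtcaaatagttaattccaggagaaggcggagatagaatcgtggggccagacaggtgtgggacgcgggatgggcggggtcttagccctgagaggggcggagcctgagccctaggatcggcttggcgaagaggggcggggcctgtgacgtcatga
Lgals9 promoter, chr11:78984875-78985174, minus strand: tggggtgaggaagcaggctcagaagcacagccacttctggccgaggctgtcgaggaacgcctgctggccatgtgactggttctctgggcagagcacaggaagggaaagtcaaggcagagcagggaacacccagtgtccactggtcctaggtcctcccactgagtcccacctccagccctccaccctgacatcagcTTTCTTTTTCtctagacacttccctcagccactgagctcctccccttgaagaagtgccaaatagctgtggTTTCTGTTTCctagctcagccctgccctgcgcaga

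Of the 5 windows, that of Lgals9 held a match to this motif, with 1 at bases -55 to -46 and 1 at bases 15 to 24 from the start site, and the other 4 held none. Both matches read on the reverse strand of the window, as TTTCTTTTTC and TTTCTGTTTC. Such a match occurred in 1131 of 32851 promoter windows of this length, or 3.44%. The search says which letters are present and not whether a factor binds.

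The lanes held 46.0 to 99.3 M unique molecular identifiers (UMIs) each (M, 1000000), over 116552 barcodes. Hashtag doublets, 8.30% of barcodes, were removed, and 83654 cells assigned to 16 mice were kept for comparisons between mice, 1835 to 17775 per mouse. With cells that no hashtag assigned to 1 mouse, 91461 were kept for clusters, totals and pooled values. Lanes shared at most 92 barcodes, or 0.62%. Clusters were named from marker genes, and 3 of 26 were left unnamed. B2m, the targeted gene, stood at 224 to 401 counts per 1000000 UMIs (CPM) in melanoma-like cells of B2m-null tumours under isotype and at 996 to 1830 CPM in those of control tumours. Under CD40 antibody these values were 440 to 492 CPM and 1683 to 2216 CPM, while macrophages of the host held 2403 to 5652 CPM over all groups. Over these 91461 cells, Cd274 had 73445 UMIs and was seen in 35.4% of cells, Vsir 50586 UMIs in 34.4%, and Lgals9 34757 UMIs in 25.2%. Pvr had 9155 UMIs in 8.59% of cells, Pdcd1lg2 6530 in 5.55%, Nectin2 2190 in 2.03%, and Ido1 113 UMIs in 76 cells. Levels of different genes are not set against each other, since a count from the 3' end depends on the gene.

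Under isotype antibody, each gene had its own order of cell classes. Levels are means over isotype mice of both genotypes with at least 20 cells of a class, with the SD and the number of mice, and classes are called by their markers. Cd274 was highest in neutrophil-like cells, at 437 CPM ± 182 (SD, n = 7), and in mature dendritic-like cells, the Ccr7-expressing migratory state, at 408 CPM ± 50.5 (n = 10). Macrophage-like cells held 169 CPM ± 69.6 (n = 10) and monocyte-like cells 157 CPM ± 60.5 (n = 10). B cells, a cluster with plasma cell genes such as Jchain and Mzb1 among its leading genes beside Ms4a1 and Cd79a, and type 2 conventional dendritic cells (cDC2) followed at 136 and 123 CPM, plasmacytoid dendritic cells at 101 CPM, and type 1 conventional dendritic cells (cDC1) at 72.4 CPM. Fibroblast-like cells held 56.0 CPM ± 31.1 (n = 6), CD8 T-like cells 38.8 CPM ± 24.5 (n = 10) and melanoma-like cells the lowest mean, 24.6 CPM ± 20.6 (n = 9). That last place rests on the 4 B2m-null mice, at a mean of 7.61 CPM, since in the 5 control mice melanoma cells held 38.1 CPM ± 18.2 and CD8 T cells 34.0 CPM ± 4.75. The gap from mature dendritic cells to macrophages was 1.38 on the log2 scale and was seen in 10 of 10 mice.

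Pdcd1lg2 was highest in mature dendritic cells, at 82.8 CPM ± 28.01 (SD, n = 10), and in neutrophils, at 63.4 CPM ± 42.1 (n = 7), and was low in macrophages, at 10.1 CPM ± 6.69 (n = 10). With marker gates in place of clusters neutrophils held 28.3 CPM ± 20.4 (n = 7), beside 28.9 CPM ± 6.08 in regulatory T cells (n = 10), so their second place depended on how cells were called. Melanoma cells held 1.16 CPM ± 1.09 of Pdcd1lg2 (n = 9), the lowest of the 13 classes. Lgals9 ran the other way in dendritic cells. Macrophages held 114 CPM ± 19.9 and monocytes 112 CPM ± 19.5 of Lgals9 (n = 10 each), and mature dendritic cells were last at 33.3 CPM ± 6.11 (n = 10). Endothelial cells, not among the 13 classes, held 231 and 195 CPM of Lgals9 when pooled within the control and B2m-null isotype groups. With marker gates they led at 187 CPM (n = 3), before monocytes at 137 CPM and macrophages at 111 CPM (n = 10 each).

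Both ligands of TIGIT had stromal or dendritic leaders. Of the 13 classes with enough cells per mouse to be ordered, Nectin2 was highest in fibroblasts, at 33.1 CPM ± 17.7 (SD, n = 6), then in mature dendritic cells at 13.9 CPM ± 7.06 (n = 10) and in melanoma cells at 13.1 CPM ± 3.58 (n = 9), and stood at 2.21 CPM ± 0.681 in macrophages. Endothelial cells, too few per mouse for this order, held 72.1 and 83.2 CPM of Nectin2 when pooled within the control and B2m-null isotype groups, and with marker gates they led at 63.3 CPM (n = 3). No Nectin2 UMI was counted in B or NK cells of the ordered mice, where gates gave means of 5.92 and 0.49 CPM. Pvr was highest in mature dendritic cells, at 53.2 CPM ± 10.8 (n = 10), followed by cDC2 at 38.9 CPM ± 4.59 and monocytes at 32.8 CPM ± 5.16, and lowest in B cells at 7.08 CPM ± 9.75 (n = 8). Vsir was highest in myeloid cells, at 194 CPM ± 29.4 in monocytes, 179 CPM ± 55.5 in neutrophils (n = 7) and 139 CPM ± 12.1 in macrophages. Lymphocytes held it too, at 83.1 CPM ± 17.4 in regulatory T cells (n = 9), 73.8 CPM ± 39.5 in B cells (n = 8) and 61.2 CPM ± 29.5 in CD8 T cells (n = 10), and melanoma cells held 8.22 CPM ± 4.94 (n = 9). Ido1 did not exceed a mean of 0.67 CPM in any of these 13 classes.

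Of 84 neighbouring pairs in these orders, none passed an adjusted p of 0.05 in two-sided exact sign-flip permutation tests over mice, and 10 had an unadjusted p under 0.05. The lowest adjusted p was 0.082, shared by Cd274 in mature dendritic cells over macrophages and Vsir in macrophages over plasmacytoid dendritic cells, each with the smallest p that 10 mice can give, 0.001953. The first places for Cd274 depended on how cells were called and summed. Pooled over all cells of the control and B2m-null isotype groups, mature dendritic cells held 405 and 387 CPM and neutrophils 400 and 373 CPM. Macrophages held 208 and 104 CPM and monocytes 193 and 121 CPM in these pools. With marker gates in place of clusters, mature dendritic cells led at 405 CPM and neutrophils held 331 CPM. With every cell thinned to 1000 UMIs and shallower cells left out, neutrophils stood at 644 CPM in 3 mice.

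**Figure D1:**
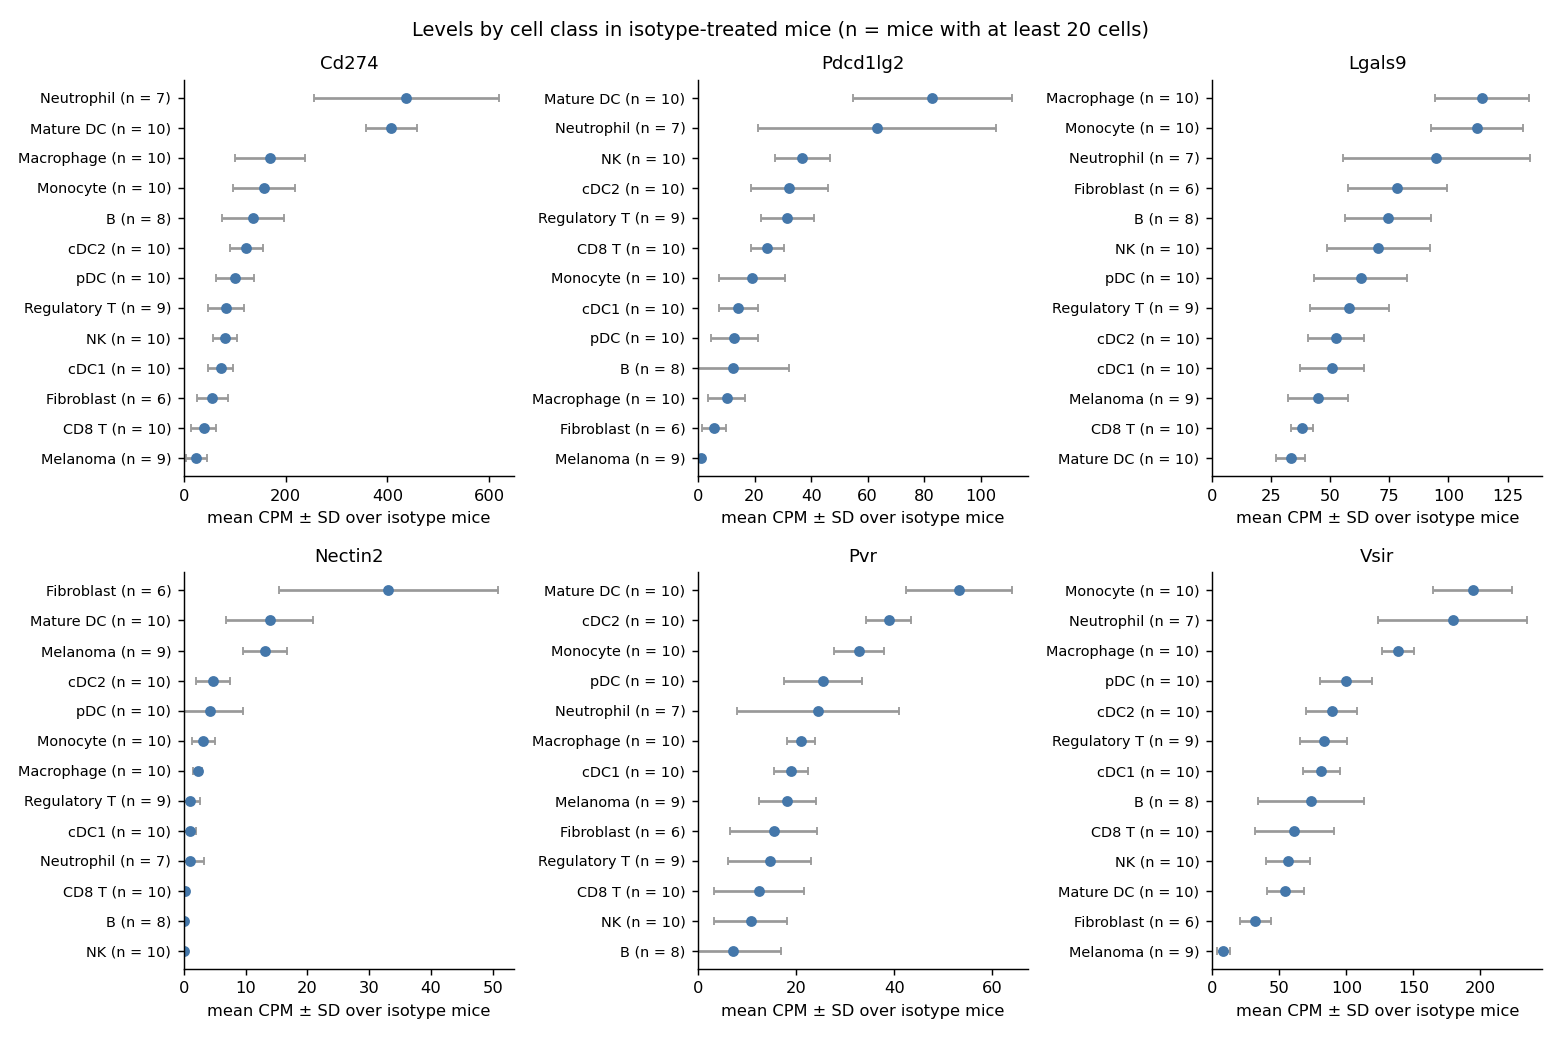
Mean level of 6 ligand genes in 13 cell classes of isotype-treated mice, endothelial cells not included, in CPM with the SD over mice as bars, and with classes ordered by mean and the number of mice in brackets. Neutrophils and mature dendritic cells stand apart for Cd274 at 437 and 408 CPM, fibroblasts lead these classes for Nectin2 at 33.1 CPM, and monocytes lead for Vsir at 194 CPM.

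Genes with the most similar pattern were sought over 51 class-by-group means of log2(CPM + 1), among 8654 genes. These correlations are descriptions, since the points share libraries and depth. Cd274 ran closest to Tgif1 (Pearson r = 0.89), Gadd45b (0.83) and Ppp1r15a (0.82), and Pdcd1lg2 to Samsn1 (0.93), Flii (0.85) and Mxd1 (0.84). Vsir ran closest to Cd53 (0.93), Slfn2 (0.92) and Lcp2 (0.90), while Nenf (0.86) and Eng (0.85) were among the closest to Nectin2. The nearest genes were looser for Lgals9, with Lgals8 at 0.77, Mindy1 at 0.76 and Dync1li2 at 0.72. For Pvr they were Necap2 and Mapk7 at 0.67 each and Sbno2 at 0.65. Ido1 had a mean of 0.461 CPM over these points, so that its list, Plvap (0.71), Esam (0.65) and Ubd (0.63), rests on a few UMIs. Among the ligands themselves, Cd274 and Pdcd1lg2 had r = 0.61, Cd274 and Vsir 0.61, Pdcd1lg2 and Vsir 0.64, and Nectin2 and Vsir -0.51.

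The main question was whether CD40 antibody changed these genes in the monocytes and macrophages of the tumour. In control tumours Cd274 and Nectin2 rose and Pvr and Lgals9 fell, and in B2m-null tumours Cd274 and Nectin2 rose. These were 4 and 2 of the 6 genes with enough counts to be tested, Ido1 being too low. UMI counts were summed per mouse over the 9 monocyte and macrophage clusters and tested with edgeR's quasi-likelihood test with Benjamini-Hochberg adjustment over 12611 genes. The same test called 22.5% of all genes in control tumours, 12.4% higher and 10.1% lower, and 38.7% in B2m-null tumours, 19.0% higher and 19.7% lower, so calls were common among all genes. The median log2 change of the tested ligands was 0.11 in control and 0.18 in B2m-null tumours, beside -0.0039 and -0.022 over all genes. The genotype comparisons given further on use the same mice.

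Cd274, encoding PD-L1, stood at 149.7, 188, 206, 219 and 295 CPM in the 5 control isotype mice and at 339 and 404 CPM in the 2 control CD40 mice. In B2m-null tumours it stood at 67.3, 91.9, 107, 171 and 171 CPM under isotype and at 214, 226, 227 and 285 CPM under CD40 antibody. Every CD40 mouse lay above every isotype mouse of its own genotype. The log2 change was 0.94 ± 0.30 (SE, adjusted p = 0.037, n = 2 and 5) in control tumours and 1.18 ± 0.25 (adjusted p = 0.0023, n = 4 and 5) in B2m-null tumours by edgeR. Those changes did not differ detectably from each other, with a difference of 0.24 ± 0.41 (adjusted p = 0.72). The call in control tumours held in 6 of 11 other settings and in 15 of 24 fits that left out a mouse or lane. It was lost with library totals in place of TMM scaling (log2 change 0.82, adjusted p = 0.057), no filter on low counts (0.94, 0.087), a stricter cell filter (0.85, 0.061), thinned cells (0.78, 0.079) and marker gates (0.64, 0.18). It was also lost without control CD40 mouse 1 (0.86, 0.20) or mouse 2 (1.01, 0.13), without 4 of the 5 control isotype mice (all but mouse 1 of the first pool), without the second control isotype lane and without either B2m-null CD40 lane, where the adjusted p was 0.0531 to 0.125. In B2m-null tumours the adjusted p stayed between 1.59e-05 and 0.0314 in every other fit of the joined monocytes and macrophages, while within single clusters the rise passed in 3 of 8.

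Nectin2, a ligand of TIGIT and CD226, is sparse in these cells, with 12 to 47 UMIs in each control isotype mouse. It stood at 1.56, 1.77, 2.31, 2.32 and 2.41 CPM in control isotype mice and at 4.23 and 4.80 CPM in control CD40 mice. B2m-null isotype mice held 1.63, 2.38, 2.48, 3.31 and 4.08 CPM and B2m-null CD40 mice 4.82, 5.78, 5.83 and 7.83 CPM. CD40 and isotype mice did not overlap within either genotype. The log2 change was 1.25 ± 0.24 (SE, adjusted p = 0.0016) in control and 1.35 ± 0.20 (adjusted p = 9.67e-05) in B2m-null tumours by edgeR, with a difference of 0.10 ± 0.32 (adjusted p = 0.87). Without control CD40 mouse 2 the change in control tumours was 1.08 with an adjusted p of 0.068.

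Pvr, which shares TIGIT and CD226 with Nectin2, fell in control tumours, and its response to CD40 antibody differed between genotypes. It stood at 20.8, 22.5, 24.2, 27.2 and 29.5 CPM in control isotype mice and at 12.8 and 14.3 CPM in control CD40 mice, without overlap. B2m-null isotype mice held 17.7, 19.4, 22.8, 23.6 and 25.4 CPM and B2m-null CD40 mice 18.1, 18.5, 20.1 and 21.3 CPM, which overlapped. By edgeR, Pvr changed by -0.74 ± 0.15 on the log2 scale (SE, adjusted p = 0.0024) in control tumours and by 0.02 ± 0.12 (adjusted p = 0.94) in B2m-null tumours. The difference of 0.76 ± 0.19 passed the test (adjusted p = 0.011), as did 22.1% of all genes in that comparison. Within single clusters, edgeR called 0 ligands for this difference in clusters 1, 3, 4, 5, 6 and 17. In each of clusters 2 and 12 it called 1 ligand, with the higher change in B2m-null tumours. These counts cover every tested ligand and are not calls of Pvr alone. In cluster 12 of control tumours Lgals9 fell by 1.66 on the log2 scale. Its changes within clusters of B2m-null tumours lay between -0.25 and 0.37. The share of all genes called for this difference within single clusters is not given. The part of the cluster mixture in the difference of Pvr was not tested. With the lane in place of the mouse as the unit the difference was 0.73 with an adjusted p of 0.12, and without control CD40 mouse 2 or the first control isotype lane it was 0.73 and 0.57 with an adjusted p of 0.066 and 0.0695. Without control CD40 mouse 2 the fall in control tumours had an adjusted p of 0.054.

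Lgals9, the ligand of TIM-3, stood at 100.5, 100.9, 114, 134 and 135 CPM in control isotype mice and at 69.9 and 78.2 CPM in control CD40 mice, without overlap. B2m-null isotype mice held 92.6, 96.5, 99.5, 118 and 145 CPM and B2m-null CD40 mice 86.3, 90.6, 92.2 and 93.3 CPM, where the top CD40 mouse lay above the lowest isotype mouse. By edgeR it fell by 0.53 ± 0.15 on the log2 scale in control tumours (SE, adjusted p = 0.021) and changed by -0.07 ± 0.12 in B2m-null tumours (adjusted p = 0.68). The difference, 0.46 ± 0.19, did not pass (adjusted p = 0.10). With the lane as the unit the change in control tumours was -0.49 (adjusted p = 0.083), and without control CD40 mouse 1, mouse 2 or the first control isotype lane the adjusted p was 0.103, 0.155 and 0.123.

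Vsir, the myeloid VISTA transcript, stood at 127 to 162 CPM in control isotype mice, 145 and 147 CPM in control CD40 mice, 141 to 166 CPM in B2m-null isotype mice and 103, 131, 138 and 140.3 CPM in B2m-null CD40 mice. All 4 B2m-null CD40 mice lay below the 5 B2m-null isotype mice. The edgeR log2 change was 0.18 ± 0.11 (adjusted p = 0.26) in control tumours and -0.07 ± 0.09 (adjusted p = 0.59) in B2m-null tumours with TMM scaling, and the latter was -0.28 (adjusted p = 0.024) with library totals alone. TMM scaling adds 0.13 to a CD40 log2 change in control and 0.21 in B2m-null tumours, which sets the size of every change given for these cells. Pdcd1lg2, the second ligand of PD-1, ranged from 3.41 to 26.8 CPM over the 16 mice with all groups overlapping, and its changes were 0.04 ± 0.64 and 0.35 ± 0.55 (adjusted p = 0.97 and 0.66). Ido1 did not exceed 0.34 CPM in any mouse.

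**Figure D2:**
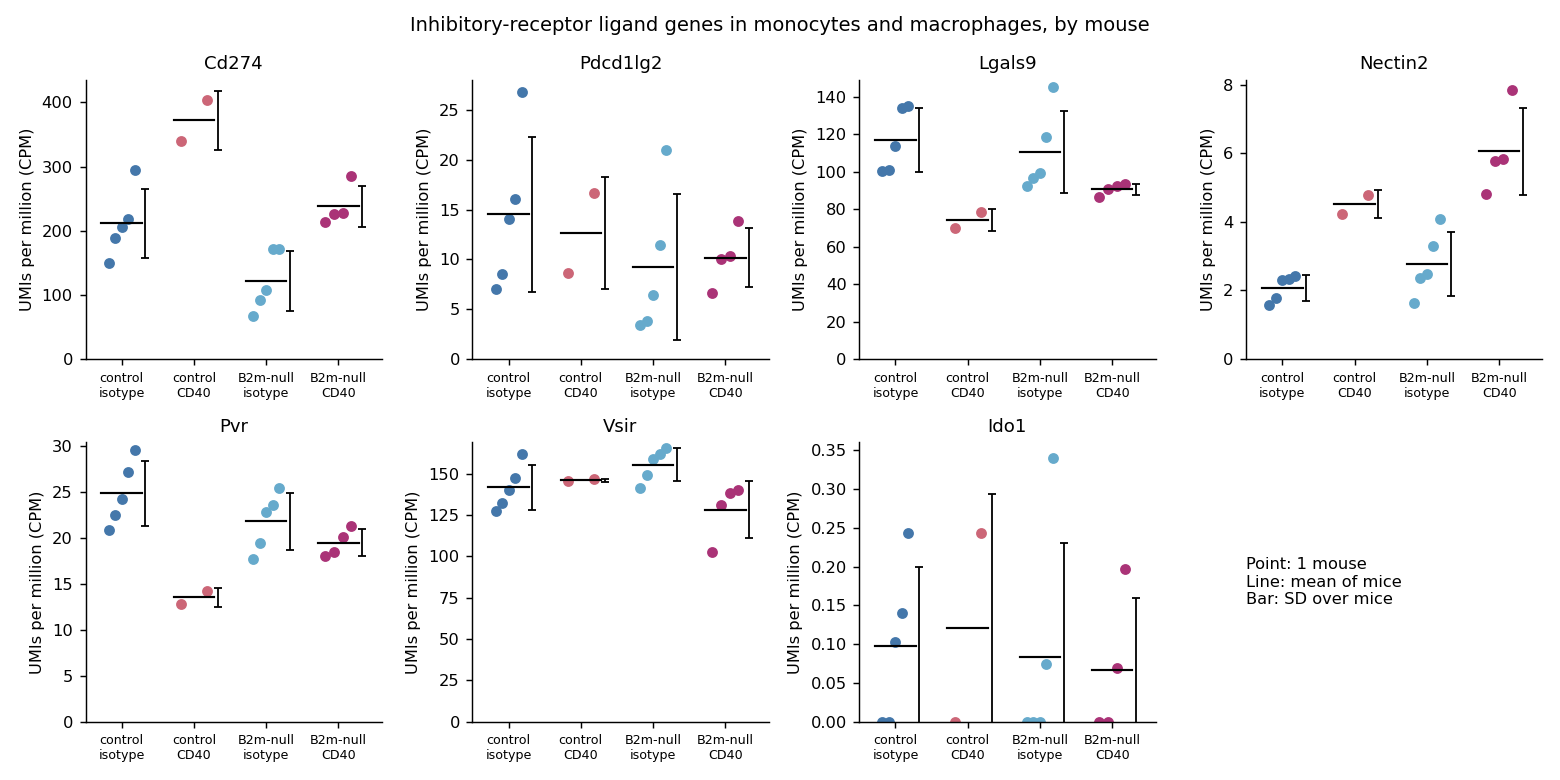
CPM of each of the 7 genes in monocytes and macrophages, 1 point per mouse, with a line at the group mean and a bar for the SD, for control and B2m-null tumours under isotype or CD40 antibody. CD40 mice lie above isotype mice of their genotype for Cd274 (339 and 404 CPM against at most 295 CPM in control tumours) and for Nectin2, and control CD40 mice lie below control isotype mice for Pvr and Lgals9.

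Transcripts of other cells in the monocyte and macrophage sums also moved with treatment. The 7 neutrophil markers together ranged from 33.1 to 56.7 CPM in control isotype, 63.7 to 76.1 in control CD40, 32.5 to 52.1 in B2m-null isotype and 67.3 to 121 in B2m-null CD40 mice, beside 15444 to 62330 CPM in neutrophils themselves. The 6 CD8 T markers ranged from 10.0 to 19.7, 32.9 to 52.2, 9.01 to 16.7 and 22.5 to 33.2 CPM in the same order. In cells without any neutrophil marker UMI, an alternative chosen after the data had been seen, the Cd274 changes were 0.92 (adjusted p = 0.043) and 1.14 (adjusted p = 0.0034). The 7 melanoma markers ranged from 86.7 to 111 and 89.1 to 104.5 CPM in control isotype and CD40 mice, and from 89.6 to 117 and 57.3 to 64.0 CPM in B2m-null isotype and CD40 mice. All 7 neutrophil, all 6 CD8 T and all 7 melanoma markers had counts in each group.

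The mixture of monocyte and macrophage clusters differed strongly between groups, so each cluster was also fitted on its own, again an alternative chosen after the data had been seen. Cluster 6, led by H2-M2 and Gpnmb, made up 2.80% ± 1.64 (SD, n = 5) of these cells in control isotype mice and 40.5% ± 1.73 (n = 2) in control CD40 mice, and 1.28% and 7.33% in B2m-null isotype and CD40 mice. Cluster 11, led by Ly6i with Nos2 among its leading genes, made up 20.6% ± 15.2 (n = 4) in B2m-null CD40 mice and at most 3.84% on average in the other groups. Clusters 2, 4, 12 and 17 held larger mean shares under isotype in both genotypes. Cluster 17, led by interferon-induced genes such as Rsad2 and Ifit2, held 8.53% in control isotype and 0.96% in control CD40 mice. In B2m-null mice it held 2.77% ± 1.01 under isotype and 2.14% ± 0.35 under CD40 antibody, with overlapping groups. The most abundant cluster was thus cluster 6 in control CD40 mice, cluster 1 in control isotype and B2m-null CD40 mice and cluster 4 in B2m-null isotype mice.

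Within clusters, Cd274 rose in clusters 1, 3 and 6 in both genotypes. That was 3 of 9 clusters tested in control and 3 of 8 in B2m-null tumours, and the log2 change was above 0 in 8 of 9 and 8 of 8. In cluster 3, macrophages led by Cd209f with Lyve1 and Cd163 among their leading genes, Cd274 stood at 81.2, 88.5, 90.0, 120.0 and 148 CPM in control isotype mice and at 173 and 177 CPM in control CD40 mice. B2m-null mice held 52.8, 62.0, 64.8, 65.8 and 69.4 CPM in that cluster under isotype and 109, 133, 175 and 224 CPM under CD40 antibody, without overlap in either genotype. The edgeR log2 changes of Cd274 there were 0.95 ± 0.20 (adjusted p = 0.0018) and 1.46 ± 0.17 (adjusted p = 3e-06), where 12.7% and 16.7% of all genes were called. Cluster 1, led by Mmp12 and Mmp13 with Arg1 and Spp1, gave 0.86 ± 0.23 (0.023, 13.6% of genes called) and 0.87 ± 0.20 (0.0050, 23.3%). Cluster 6 gave 1.02 ± 0.23 (0.0050, 3.44%) and 1.00 ± 0.27 (0.021, 4.98%). Lgals9 fell in clusters 3 and 12 of 9 in control tumours, by 0.84 and 1.66 on the log2 scale (adjusted p = 0.00032 and 0.0016, 8.64% of genes called in cluster 12), and in 0 of 8 in B2m-null tumours, with 1 at an unadjusted p under 0.05. Pvr fell in cluster 1 in control tumours, by 0.77 (adjusted p = 0.022), and its change was below 0 in 8 of 9 clusters. Vsir was called higher in cluster 1 in control tumours, by 0.40 ± 0.13 (adjusted p = 0.047) with overlapping groups. Nectin2 could be tested in clusters 1 and 3, where its changes lay between 0.69 and 1.27 and passed in 0 of 2 in each genotype, with 1 in control and 2 in B2m-null tumours at an unadjusted p under 0.05. Pdcd1lg2 passed in 0 of 8 and 0 of 7 clusters, with 1 and 0 at an unadjusted p under 0.05. With library totals the changes in cluster 1 of control tumours were 0.20 for Vsir (adjusted p = 0.30) and 0.67 for Cd274 (0.065), and that of Cd274 in cluster 6 of B2m-null tumours was 0.73 (0.089). With those totals Lgals9 was also called lower in clusters 1 and 2 of control and cluster 3 of B2m-null tumours, and Vsir in clusters 4 and 5 of B2m-null tumours. Lower calls were common among all genes with those totals. In the joined monocytes and macrophages they were 2346 of 3313 calls in control and 4503 of 5730 in B2m-null tumours.

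**Figure D3:**
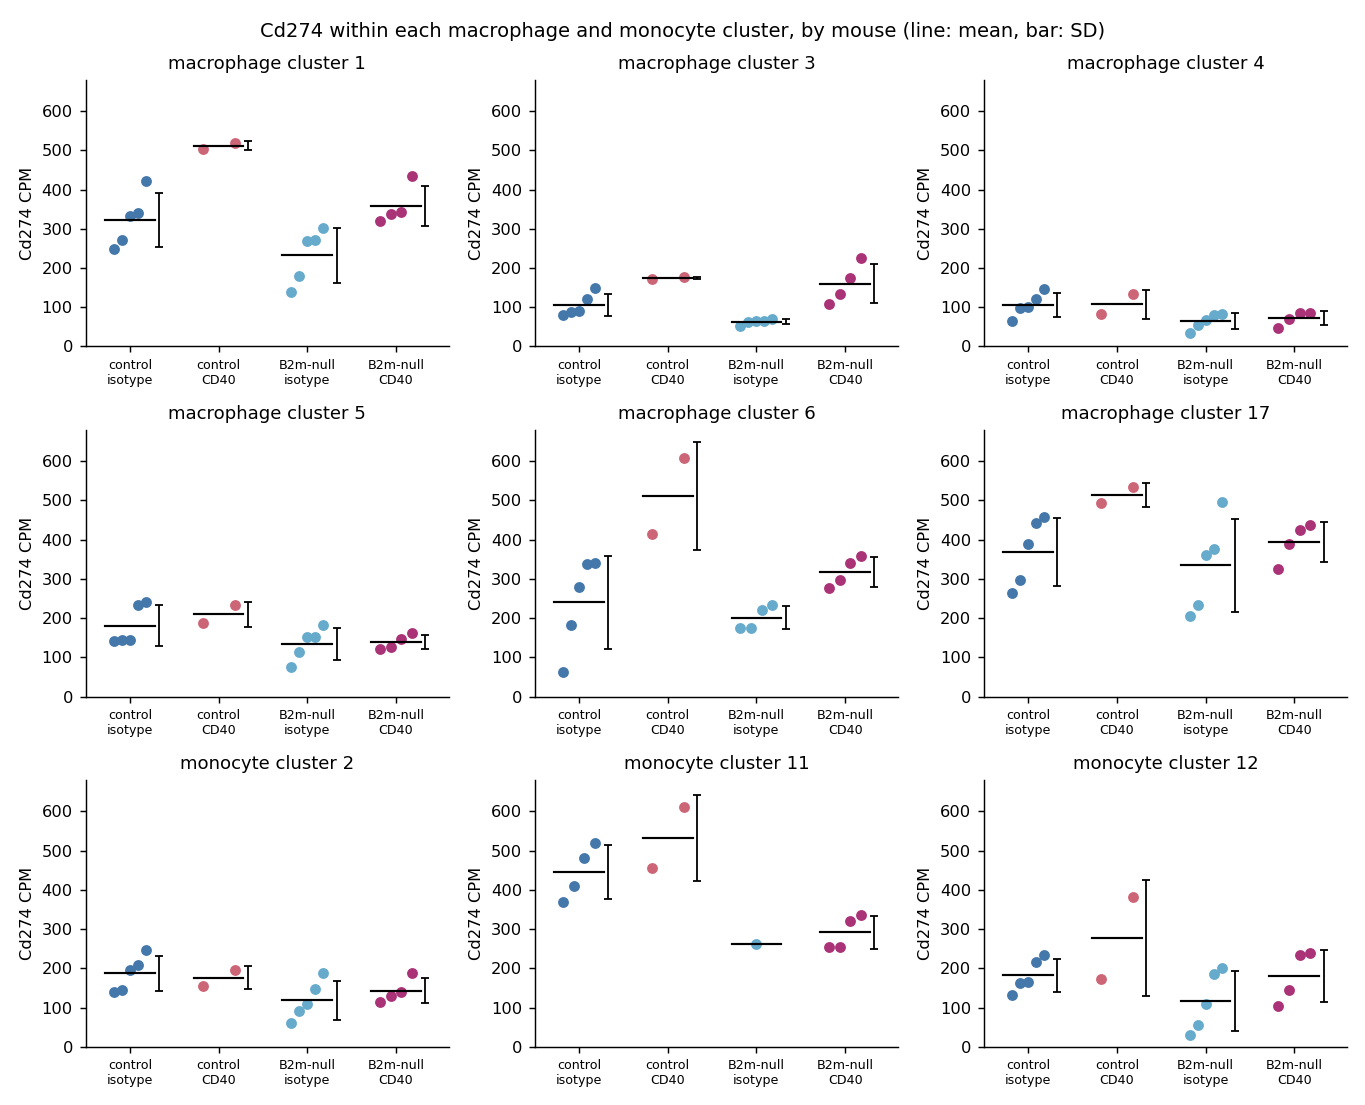
Cd274 in CPM within each of the 9 macrophage and monocyte clusters, 1 point per mouse with at least 20 cells, with a line at the mean and a bar for the SD. In macrophage cluster 3 the CD40 mice, from 109 CPM upward in B2m-null tumours, lie above all isotype mice of their genotype, while monocyte cluster 2 and macrophage clusters 4 and 5 overlap.

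Shares of cells gave the same direction at a fixed depth. Thinned to 1000 UMIs, 20.3% of control isotype macrophages and 28.6% of control CD40 macrophages had a Cd274 UMI, and 12.0% and 20.9% in B2m-null tumours. Before thinning these shares were 49.0%, 52.5%, 34.0% and 53.9%. Monocytes gave 15.7%, 26.4%, 9.70% and 20.4% in the same order after thinning. NK cells, for comparison at the same depth, gave 9.05%, 7.89%, 7.27% and 4.88%. Unthinned and pooled over all cells of a group, Cd274 also stood higher under CD40 antibody in CD8 T and B cells. CD8 T cells held 33.6 and 93.3 CPM under isotype and CD40 antibody in control tumours, and 29.1 and 42.1 CPM in B2m-null tumours. B cells held 152 and 182 CPM in control and 93.3 and 133 CPM in B2m-null tumours. Over the cells of all named classes together, thinning left out 2310 in control isotype, 5507 in control CD40, 1716 in B2m-null isotype and 1314 in B2m-null CD40 mice. No test was run on these shares.

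Macrophages and monocytes were also tested apart. In macrophages Cd274, Nectin2, Pvr and Lgals9 changed in control tumours as in the joined set (22.9% of genes called), and Cd274 and Nectin2 in B2m-null tumours (36.0%). In monocytes Lgals9 fell in control tumours by 0.66 ± 0.16 (SE, adjusted p = 0.0092 by edgeR, 9.51% called). In B2m-null monocytes Cd274 rose by 1.27 ± 0.29 (adjusted p = 0.0033) and Nectin2 by 1.77 ± 0.36 (adjusted p = 0.00037), where 39.1% of genes were called. Cluster 11 held 2456 of the 3562 monocytes of B2m-null CD40 tumours and 39 of the 4071 of B2m-null isotype tumours, and its part in these changes was not tested. Within monocyte clusters 2 and 12 the Cd274 changes in B2m-null tumours were 0.43 ± 0.30 (adjusted p = 0.37) and 0.51 ± 0.44 (adjusted p = 0.44), and Nectin2 had too few counts to be tested in either. Vsir in B2m-null monocytes stood at 168, 211, 226, 228 and 233 CPM under isotype and at 119.9, 139, 140.3 and 152 CPM under CD40 antibody. Its fall of 0.40 ± 0.10 on the log2 scale passed the test (adjusted p = 0.0037). Within single clusters of B2m-null tumours edgeR with TMM scaling called Vsir in 0 of 8, with 1 at an unadjusted p under 0.05 and log2 changes from -0.41 to 0.17. The CD40 changes differed between genotypes for Pvr in macrophages, by 0.68 ± 0.20 (adjusted p = 0.021, 20.4% called), and for Lgals9 in monocytes, by 0.67 ± 0.20 (adjusted p = 0.023, 16.0% called). Scaled by library totals alone, the difference in Lgals9 was 0.54 (adjusted p = 0.066).

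Tumour genotype was compared within each treatment in the same cells. Under isotype, Cd274 was lower in B2m-null than in control tumours by 0.86 ± 0.24 on the log2 scale (SE, adjusted p = 0.037 by edgeR), the only ligand called, and 11.0% of all genes were called. The groups overlapped: 3 of 5 B2m-null mice lay below every control mouse. Under CD40 antibody the Cd274 difference was -0.62 ± 0.32 (adjusted p = 0.21), although all 4 B2m-null mice, at 214 to 285 CPM, lay below both control mice. Pvr was higher in B2m-null tumours under CD40 antibody, by 0.55 ± 0.15 (adjusted p = 0.030, 12.7% of genes called), with 18.1 to 21.3 CPM against 12.8 and 14.3 CPM. The isotype call for Cd274 held in 14 of 24 fits that left out a mouse or lane, and was lost without the first control isotype pool (-0.52, adjusted p = 0.45), the first B2m-null isotype pool (-0.84, 0.26), either B2m-null CD40 lane or any of 6 single isotype mice, with no filter on low counts (-0.87, 0.082) and with the stricter cell filter (-0.75, 0.082). In monocytes alone the isotype difference of Cd274 was -0.74 ± 0.28 (adjusted p = 0.17) and in macrophages alone -0.88 ± 0.25 (adjusted p = 0.038, 11.1% called). Within single clusters, whose mixture differed between these groups (cluster 4 at 25.6% and 11.4%, cluster 5 at 5.03% and 16.9% in B2m-null and control mice), edgeR called Cd274 in 0 of 8, with 5 at an unadjusted p under 0.05, and in 0 with library totals. The differences there lay between -0.82 and -0.26. The Pvr call held in 17 of 24 and was lost without either control CD40 mouse, 2 of the 4 B2m-null CD40 mice, the second control CD40 lane or either B2m-null CD40 lane, with the lane as the unit (0.57, 0.15), with thinned cells (0.56, 0.15) and with gates (0.48, 0.077). For genotype under CD40 antibody, edgeR within single clusters called 1 ligand higher in cluster 3 and 1 lower in each of clusters 4 and 11. It called 0 in clusters 1, 2, 5, 6, 12 and 17. These counts cover every tested ligand and are not calls of Pvr or Cd274 alone. The share of all genes called in these fits is not given. Each pool holds mice of 1 group, so no value within a pool can be had.

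**Figure D4:**
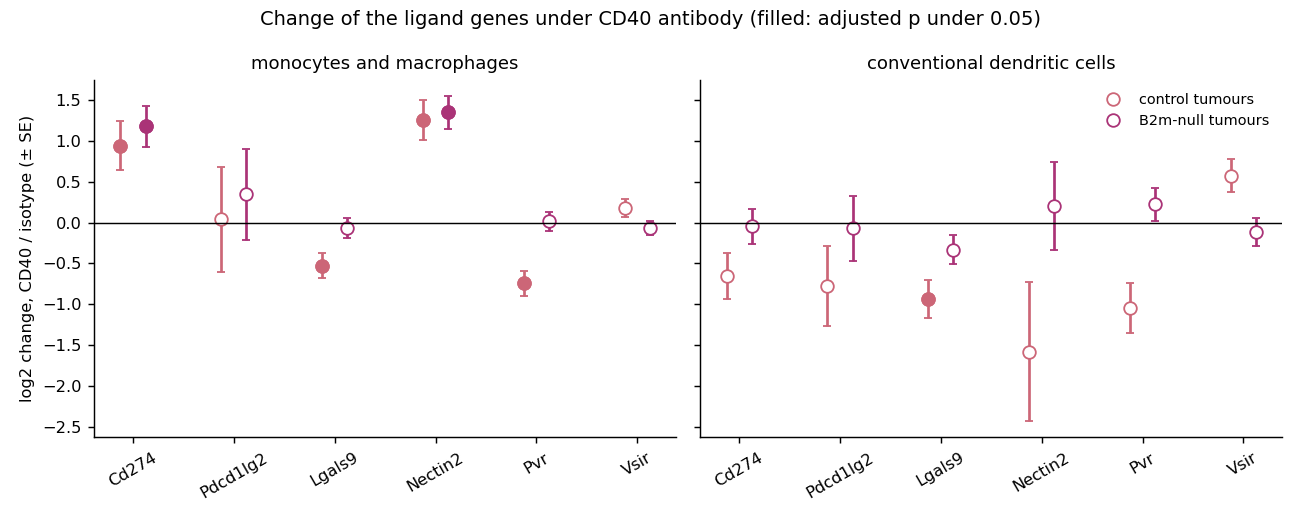
Log2 change under CD40 antibody with its SE for 6 ligand genes in monocytes and macrophages (left) and conventional dendritic cells (right), in control and B2m-null tumours, with filled points for an adjusted p under 0.05. Cd274 and Nectin2 lie above 0 with filled points in both genotypes on the left, from 0.94 to 1.35, and Lgals9 in control tumours, at -0.93, is the only filled point on the right.

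In conventional dendritic cells, the cDC1, cDC2 and mature clusters together, Lgals9 fell in control tumours and Cd274 was not called in either genotype. These cells were few under CD40 antibody, with 84 and 165 cells in the control mice and 65 to 109 in the B2m-null mice, against 289 to 654 under isotype. Cd274 stood at 169, 191, 221, 222 and 257 CPM in control isotype mice and at 101 and 150.01 CPM in control CD40 mice, all lower. B2m-null mice held 133 to 215 CPM under isotype and 109, 129, 176 and 283 CPM under CD40 antibody. The edgeR changes were -0.65 ± 0.28 (SE, adjusted p = 0.23) and -0.04 ± 0.22 (adjusted p = 0.93). Lgals9 fell in control tumours, from 42.4, 46.8, 48.1, 48.4 and 53.4 CPM to 17.9 and 27.4 CPM, by 0.93 ± 0.23 on the log2 scale (adjusted p = 0.021), the 1 ligand called where 3.53% of genes were. It rested on 6 and 25 UMIs in the CD40 mice, and with marker gates in place of clusters its change was 0.02 (adjusted p = 0.96). The call was also lost without either control CD40 mouse, the second control CD40 lane or either control isotype lane, with the lane as the unit, with thinned cells and without cells holding neutrophil transcripts. The 8 macrophage markers in these cells, all with counts in each group, summed to 975 to 2382 CPM in control isotype, 128 to 1198 in control CD40, 840 to 3299 in B2m-null isotype and 295 to 1840 in B2m-null CD40 mice. The 6 CD8 T markers, again all with counts, summed to 361 to 659, 665 to 988, 199 to 393 and 428 to 628 CPM in that order. Without cells holding T or NK cell transcripts the Lgals9 change was -1.40 (adjusted p = 0.0685), and the part of the macrophage transcripts was not tested.

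Pvr in these dendritic cells stood at 33.03 to 39.9 CPM in control isotype mice and at 14.2 and 23.9 CPM in control CD40 mice, a change of -1.04 ± 0.31 (adjusted p = 0.056). In B2m-null tumours it ranged from 32.3 to 43.6 CPM under isotype and stood at 26.8, 32.4, 48.6 and 66.1 CPM under CD40 antibody. The difference of the CD40 changes was 1.26 ± 0.37 (adjusted p = 0.042 by edgeR, 5.38% of genes called), the same sign as in macrophages, and its adjusted p ran from 0.0077 to 0.51 over the alternatives. Leaving out mice or lanes moved it between 0.70 (without the first control CD40 lane) and 1.95 (without the second), and the call held in 7 of 24 such fits. It was lost without either control CD40 mouse, any single control isotype mouse without 3 of the 5 B2m-null isotype and 2 of the 4 B2m-null CD40 mice, and without 5 of 8 lanes. In the other dendritic comparisons edgeR called 0 of 6 ligands, with 0 at an unadjusted p under 0.05 for CD40 antibody in B2m-null tumours (13.4% of genes called), 0 for genotype under isotype (3.35%) and 2 for genotype under CD40 antibody (1.08%), where DESeq2 called 0, 0 and 1. The mixture shifted as well: mature cells made up 34.8% ± 3.10 (SD, n = 5) of these dendritic cells in control isotype mice and 18.7% ± 7.88 (n = 2) in control CD40 mice, 34.2% ± 6.32 (n = 5) in B2m-null isotype and 32.2% ± 21.5 (n = 4) in B2m-null CD40 mice. Fitted alone by edgeR, cDC1 and cDC2 each had 0 of 5 ligands called for CD40 antibody in control tumours. At an unadjusted p under 0.05 stood 0 in cDC1 and 4 in cDC2. For the difference of the CD40 changes each class again had 0 of 5 called, with 1 and 3 at such a p. The share of all genes called in these single-class fits is not given, so the counts are not set against it. Under CD40 antibody in control tumours the median log2 change of the tested ligands was -0.16 in cDC1 and -0.84 in cDC2. Over all genes it was -0.028 and -0.031. Mature cells were too few for these fits, and the part of the shift in mixture in the joined changes was not tested.

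Within mature dendritic cells, the class with the second highest Cd274 level, the isotype mice stood between 333 and 486 CPM and the 2 B2m-null CD40 mice with at least 20 cells at 293 and 416 CPM. The 1 such control CD40 mouse stood at 391 CPM. The change in B2m-null tumours was -0.22 ± 0.20 (adjusted p = 0.71 by edgeR, 1.43% of genes called), and the genotype difference under isotype was -0.09 ± 0.13 (adjusted p = 0.86, 0.63%). In cDC2 under isotype, Cd274 stood at 129, 133, 143, 161 and 166 CPM in control and at 67.5, 89.7, 97.4, 105 and 138 CPM in B2m-null tumours. That difference of -0.57 ± 0.14 passed the test (adjusted p = 0.020, 3.13% of genes called), and 4 of 5 B2m-null mice lay below every control mouse.

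Melanoma cells carried over through the CD45 enrichment, 21 to 347 per mouse, held little Cd274, but it changed with treatment and genotype. It stood at 19.2, 23.3, 39.8, 43.5 and 64.9 CPM in control isotype mice and at 60.7 and 73.3 CPM in control CD40 mice, with 1 isotype mouse between the CD40 mice. In B2m-null tumours the 4 isotype mice with at least 20 cells held 5.14, 6.38, 8.15 and 10.8 CPM, on 3 to 25 UMIs each, and the 3 CD40 mice 24.9, 34.5 and 36.7 CPM. Those groups did not overlap, and every B2m-null isotype mouse lay below every other mouse. By edgeR the CD40 change was 1.11 ± 0.29 on the log2 scale (SE, adjusted p = 0.038, 4.34% of genes called) in control and 1.97 ± 0.50 (adjusted p = 0.028, 6.30%) in B2m-null tumours, with a difference of 0.86 ± 0.58 (adjusted p = 0.49, 3.47%). Cd274 was lower in B2m-null than in control tumours under isotype by 2.01 ± 0.40 (adjusted p = 0.012, 3.45%), and the difference under CD40 antibody was -1.15 ± 0.38 (adjusted p = 0.15, 2.07%). With library totals alone the change in control tumours was 0.95 (adjusted p = 0.055). The share of melanoma cells assigned to a mouse differed between groups. It was 258 of 335 in control isotype, 437 of 501 in control CD40, 194 of 475 in B2m-null isotype and 92 of 136 in B2m-null CD40 tumours. Pooled over all melanoma cells, assigned or not, Cd274 stood at 30.7, 68.8, 8.83 and 27.9 CPM in that order, without a test.

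Of the 4 ligands with enough counts in melanoma cells, Cd274 was the only one called in these comparisons. Lgals9 was the next closest, with a genotype difference under isotype of -0.58 ± 0.21 (adjusted p = 0.13). Nectin2 stood at 13.1 CPM ± 3.58 (SD, n = 9) in isotype mice, and its CD40 changes were -0.15 ± 0.29 and 0.66 ± 0.36 (adjusted p = 0.89 and 0.30). The summed 8 macrophage markers in melanoma cells ranged from 876 to 1769 CPM in control isotype, 904 to 1360 in control CD40, 782 to 2322 in B2m-null isotype and 652 to 1020 in B2m-null CD40 mice, against 11207 to 13509 CPM in macrophages. All 8 markers had counts in each group. The 6 CD8 T markers, also with counts in each group, summed to 3.68 to 23.9, 27.7 to 57.7, 1.60 to 37.7 and 15.5 to 77.4 CPM in that order. The 7 neutrophil markers, of which 4 or 5 had counts in a group, summed to 2.21 to 14.8, 12.2 to 14.4, 9.91 to 16.3 and 18.3 to 26.4 CPM. The part of these transcripts in the Cd274 changes was not tested.

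**Figure D5:**
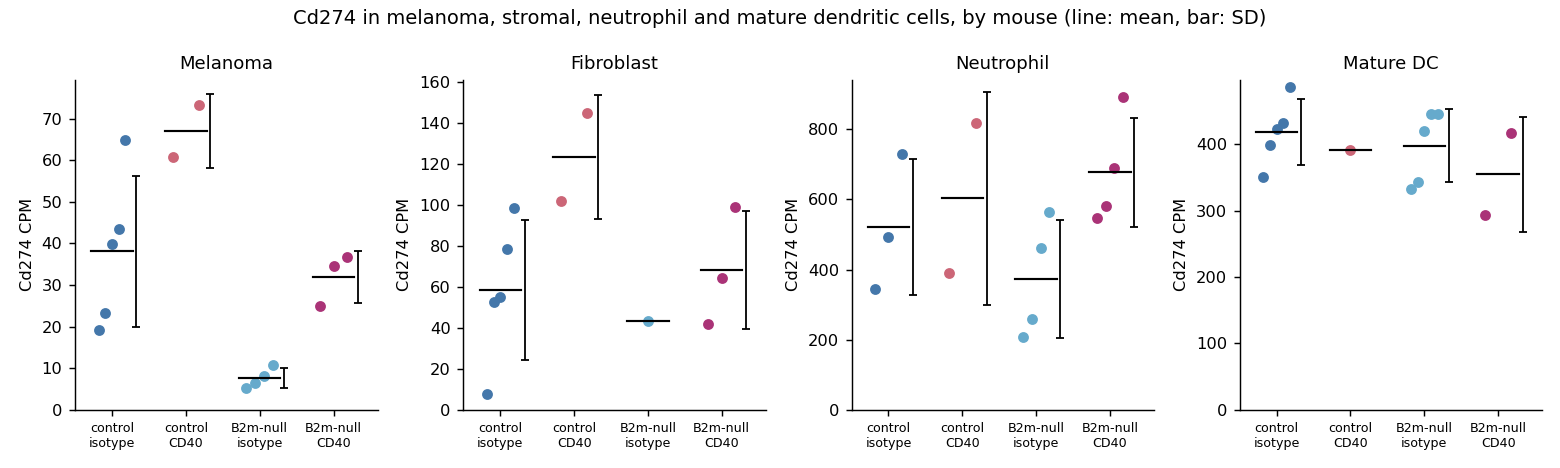
Cd274 in CPM in melanoma cells, fibroblasts, neutrophils and mature dendritic cells, 1 point per mouse with at least 20 cells, with a line at the mean and a bar for the SD. B2m-null isotype melanoma cells lie lowest, at 5.14 to 10.8 CPM, and mature dendritic cells lie between 293 and 486 CPM with all groups overlapping.

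Fibroblasts held Cd274 at 7.48, 52.6, 55.0, 78.5 and 98.7 CPM in control isotype mice and at 102 and 145 CPM in control CD40 mice, without overlap. The change of 1.25 ± 0.54 did not pass (adjusted p = 0.38 by edgeR, 1.88% of genes called), and edgeR called 0 of 5 ligands there, with 1 at an unadjusted p under 0.05. One B2m-null isotype mouse, at 43.6 CPM, and 3 B2m-null CD40 mice, at 41.7, 64.4 and 98.8 CPM, had enough fibroblasts. Neutrophils held Cd274 at 345, 492 and 728 CPM in control isotype, 389 and 818 CPM in control CD40, 207, 259.6, 462 and 565 CPM in B2m-null isotype and 546, 581, 690.3 and 893 CPM in B2m-null CD40 mice. The change in B2m-null tumours was 0.98 ± 0.32 (adjusted p = 0.14, 1.51% of genes called), and that in control tumours 0.32 ± 0.43 (adjusted p = 0.78, 1.96%).

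Endothelial-like cells were pooled within groups, with cells not assigned to a mouse, since they numbered 62 in control isotype, 55 in control CD40, 84 in B2m-null isotype and 38 in B2m-null CD40 tumours. Of these, 59, 48, 51 and 36 were assigned to a mouse. Each group is given as 1 pooled value, no test was run, and the exact Poisson intervals cover counting error only. Cd274 stood there at 93.5 CPM (95% interval 72.9 to 118), 151 CPM (119 to 190.02), 18.3 CPM (10.8 to 28.9) and 159 CPM (117 to 212) in that order. Lgals9 stood between 195 and 271 CPM and Nectin2 between 63.4 and 83.2 CPM.

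Ido1, the tryptophan-degrading enzyme, was concentrated in stromal cells. Of its 113 UMIs, 35 were in fibroblasts and 24 in endothelial cells. Pooled fibroblasts held 0 UMIs in both isotype groups, where 3 UMIs would be 1.77 CPM in control and 2.16 CPM in B2m-null tumours. Under CD40 antibody they held 16 UMIs, or 5.56 CPM (95% Poisson interval 3.18 to 9.03), in control and 19 UMIs, or 8.07 CPM (4.86 to 12.6), in B2m-null tumours, in 7 and 4 cells. Endothelial cells held 9 UMIs under isotype and 3 under CD40 antibody in control tumours, and 0 and 12 in B2m-null tumours. The last is 40.7 CPM (21.0 to 71.1), beside the 0 under isotype, where 3 UMIs would be 3.04 CPM. No test was run on these counts.

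CD8 T and regulatory T cells also carried ligand transcripts that moved with treatment. In CD8 T cells of control tumours Cd274 stood at 31.3 to 42.4 CPM under isotype and at 60.7 and 104.5 CPM under CD40 antibody, a log2 change of 1.35 ± 0.19 (SE, adjusted p = 8.3e-06 by edgeR, 40.7% of genes called). Vsir rose there by 1.36 ± 0.18 (adjusted p = 2.2e-06) and Lgals9 by 0.58 ± 0.17 (adjusted p = 0.0092), and Pdcd1lg2 fell by 0.93 ± 0.25 (adjusted p = 0.0043). The 8 mature dendritic markers in these CD8 T cells, all with counts, summed to 188 to 257 CPM under isotype and 138 to 160 CPM under CD40 antibody in control tumours. The 7 melanoma markers, of which 6 and 7 had counts, summed to 7.72 to 18.4 and 28.5 to 38.1 CPM there, and the part of either in these changes was not tested. In B2m-null tumours Vsir rose in CD8 T cells by 1.23 ± 0.19 (adjusted p = 0.00021, 13.7% called), with overlapping groups. In these cells the mature dendritic markers, 8 of 8 with counts, summed to 153 to 526 CPM under isotype and 122 to 138 CPM under CD40 antibody, and the melanoma markers to 14.0 to 70.1 and 4.10 to 12.2 CPM. Their part in the changes was not tested. Cd274 was called there too, by 0.74 ± 0.24 (adjusted p = 0.041), but its mean was 44.3 CPM under CD40 antibody and 43.6 CPM under isotype, and with library totals the change was 0.57 (adjusted p = 0.12). Under CD40 antibody Cd274 in CD8 T cells was lower in B2m-null than in control tumours by 0.86 ± 0.19 (adjusted p = 0.0042, 12.6% called). Regulatory T cells showed a rise of Vsir in both genotypes, by 1.03 ± 0.19 (adjusted p = 0.00016, 23.1% called) and 0.74 ± 0.20 (adjusted p = 0.0062, 23.6% called). Pvr rose in those of B2m-null tumours by 1.53 ± 0.40 (adjusted p = 0.0052), on 2 to 81 UMIs per CD40 mouse and 0 to 16 per isotype mouse, with overlapping groups. The mixture of the CD8 T clusters moved too, with cluster 0 at 23.3% of them in control isotype, 84.4% in control CD40, 37.6% in B2m-null isotype and 72.9% in B2m-null CD40 tumours.

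Other genes of these pathways were read from lists in the monocytes and macrophages. Of 16 genes of the interferon gamma pathway and of PD-L1 regulation, edgeR called 0 in control tumours, with 2 at an unadjusted p under 0.05, and 5 higher and 2 lower in B2m-null tumours, where 22.5% and 38.7% of all genes were called. Those higher there included Socs1 (1.73 ± 0.36, SE, adjusted p = 0.0019) and Socs3 (0.98 ± 0.16, 0.00030), which restrain cytokine signalling, and Irf1 (1.15 ± 0.29, 0.0062), a transcription factor of the interferon response. The median log2 change of this list was -0.019 in control and 0.07 in B2m-null tumours, beside -0.0039 and -0.022 over all genes. The difference of the CD40 changes between genotypes is not given for this list, so these counts do not compare the genotypes.

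Of 15 other ligands of inhibitory or costimulatory receptors, 12 were tested, and 2 rose and 2 fell in control tumours while 5 rose and 2 fell in B2m-null tumours. Of all genes 12.4% rose and 10.1% fell in control tumours, and 19.0% and 19.7% in B2m-null tumours. Cd200, whose product restrains myeloid cells through its receptor, rose by 2.16 ± 0.39 (adjusted p = 0.0013) and 1.71 ± 0.34 (adjusted p = 0.0014). Icosl, the ligand of ICOS, fell by 1.51 ± 0.39 and by 1.09 ± 0.29 (adjusted p = 0.0105 and 0.0071). H2-T23, encoding the nonclassical MHC molecule Qa-1, rose by 0.81 ± 0.25 in control tumours (adjusted p = 0.030), and Cd86, the costimulatory ligand of CD28, fell there by 1.12 ± 0.21 (adjusted p = 0.0017). In B2m-null tumours Ceacam1 fell by 1.17 ± 0.20 (adjusted p = 0.00035) and Lgals3 rose by 0.69 ± 0.22 (adjusted p = 0.021). The list's median was -0.078 in control and 0.38 in B2m-null tumours.

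Of the 8 receptors that the ligands bind, 5 were tested in these myeloid cells. Havcr2, encoding TIM-3, fell in control tumours by 0.79 ± 0.19 (adjusted p = 0.0070), beside the fall of its ligand gene Lgals9, and Cd96 rose in B2m-null tumours by 1.05 ± 0.37 (adjusted p = 0.031). Cd96 is a receptor of T and NK cells, and the 6 CD8 T markers in the same sums of B2m-null tumours ranged from 9.01 to 16.7 CPM under isotype and from 22.5 to 33.2 CPM under CD40 antibody; their part in this rise was not tested. Of 11 genes of tryptophan breakdown, 10 were found under their symbols and 7 tested. Kmo, the enzyme that hydroxylates kynurenine, fell by 1.61 ± 0.51 (adjusted p = 0.034) and by 1.95 ± 0.40 (adjusted p = 0.0012). Haao fell by 1.34 ± 0.38 in control tumours (adjusted p = 0.019), and in B2m-null tumours Kynu, encoding kynureninase, rose by 1.72 ± 0.39 (adjusted p = 0.0025), Afmid rose by 0.44 ± 0.16 (0.038) and Ahr, the receptor for kynurenine, fell by 0.60 ± 0.20 (0.029). That made 0 higher and 2 lower in control and 2 higher and 2 lower in B2m-null tumours, beside 22.5% and 38.7% of all genes called in either direction.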

How the data were processed

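The deposited matrices hold raw UMI counts per gene and cell barcode, followed by the hashtag counts, made by the authors with Cell Ranger 3.0.0 and bcl2fastq 2.20.0.422 on mm10, per the submitters' processing notes. Coordinates come from the GENCODE vM21 annotation of GRCm38. Kept cells had 200 or more genes, with mitochondrial counts at or below 10%. A hashtag more than 2.5 SD above its background counted as present, cells with 2 such hashtags were removed as doublets, and the others were assigned with at least 20 hashtag counts and a posterior of at least 0.9. Doublets within 1 mouse cannot be seen this way.

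Cells were clustered with scanpy 1.11.5 (2000 variable genes, 40 components, 20 neighbours, Leiden resolution 1), leaving out the 56 listed genes. Clusters were named from fixed markers, with at least 3 raised. The 3 unnamed clusters held mixed T cell and myeloid transcripts or under 3 raised markers. Marker gates placed 60.8% of the clustered monocytes and macrophages and 83.7% of the conventional dendritic cells in the same set.

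Counts were summed per mouse and cell set, with at least 20 cells, and fitted over all 4 groups with edgeR 4.0.16 (TMM scaling, filterByExpr, quasi-likelihood test, Benjamini-Hochberg adjustment, threshold 0.05). CPM values are counts per 1000000 UMIs of the summed set, without TMM scaling. The fit was tested on simulated data. Mice of a pool share a lane but were treated as independent, so the p-values do not set the spread between pools apart from that between mice. All 7 genes are named whatever they did, except in some counts over the ligands within single clusters or classes. From each further list at most 4 per comparison are named, by the size of the log2 change among those past the threshold. The genes and lists were chosen with earlier results of these data known. Alternatives were DESeq2 1.42.0, RLE scaling, other filters, thinning to 1000 UMIs, gates, the lane as the unit, a replicate block and leaving out mice or lanes. With the lane as the unit, both control CD40 lanes were summed to 1 unit, and cells without an assigned hashtag were counted too. Added after seeing the data were scaling by library totals, cells without neutrophil transcripts, the 3-group fit without the block and single clusters. Some genes that the naming rule selects are not reported here.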

Additional observations from a re-analysis of the deposited data

Results flagged for a closer look

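The CD40 change of Pvr differed between genotypes in monocytes and macrophages, by 0.7559 on the log2 scale (edgeR interaction, adjusted p = 0.0109), in macrophages alone, by 0.6781 (adjusted p = 0.0212), and in conventional dendritic cells, by 1.2617 (adjusted p = 0.0416). In each set the change in B2m-null tumours was the higher one. The CD40 change of Lgals9 in monocytes differed likewise, by 0.6721 (adjusted p = 0.0227), and with library totals in place of TMM scaling the adjusted p was 0.066. All these contrasts rest on 2 control CD40 mice of 1 pool.

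Of 60 groups of 4 or 5 mice that were examined, 2 held a mouse far from the others, and chance alone flags about 1 group in 20. For Lgals9 in conventional dendritic cells, B2m-null CD40 pool 1 mouse 1 stood at 46.3 CPM, with the nearest of the other mice at 29.4 CPM. For Vsir in melanoma cells, B2m-null isotype pool 1 mouse 1 stood at 12.0 CPM, with the nearest at 3.88 CPM.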

How the results depend on the processing

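In monocytes and macrophages the rise of Cd274 and Nectin2 in B2m-null tumours passed in every other fit of the joined cells, but within single clusters Cd274 passed in 3 of 8 and Nectin2 in 0 of 2. In control tumours 4 ligands were called, and 3 with library totals, no filter on low counts, the stricter cell filter, thinned cells or gates, each losing Cd274, and 3 with the lane as the unit, losing Lgals9. Leaving out mice or lanes gave 0 to 4 (0 without control CD40 mouse 2, 2 without mouse 1). The 1 ligand called for genotype under isotype became 0 with no filter on low counts and with the stricter cell filter, and 0 to 2 on leaving out mice or lanes. The 1 called for genotype under CD40 antibody became 0 with the lane as the unit, with thinned cells and with gates, and ranged from 0 to 1. The 1 called for the difference of CD40 changes became 0 with the lane as the unit and 2 with gates, and ranged from 0 to 2. In conventional dendritic cells the 1 ligand called for CD40 antibody in control tumours became 2 with DESeq2, no filter, gates and library totals, and 0 with the lane as the unit, with thinned cells and without cells holding T or NK cell transcripts or neutrophil transcripts, and ranged from 0 to 3 (3 without the second B2m-null isotype lane). There Lgals9 reversed with gates, to 0.0244 (adjusted p = 0.958). The 0 called in B2m-null tumours became 2 with gates. The 0 called for genotype under CD40 antibody became 1 with DESeq2, no filter and gates, and ranged from 0 to 1. The 1 called for the difference became 0 with library totals, the lane as the unit, the stricter filter, thinned cells and without cells holding T or NK cell or neutrophil transcripts, and ranged from 0 to 2. The cause of these shifts was not tested. Library totals moved the share of higher calls over all genes from 55.2% to 29.2% in control and from 49.0% to 21.4% in B2m-null monocytes and macrophages under CD40 antibody. With cells thinned and those under 1000 UMIs left out, Cd274 in neutrophils stood at 644 CPM over 3 mice, against 437 CPM over 7.

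The labels do not say whether lanes with the same replicate number were handled together. The deviations of such lanes over 13192 genes correlated at 0.18, 0.18 and 0.04. A replicate block over the 3 groups with biological replicate lanes called 2 ligands for CD40 antibody in B2m-null tumours and 1 for genotype under isotype in monocytes and macrophages, and 0 and 0 in conventional dendritic cells, as did the same fit without the block. Ido1 had too few UMIs to be tested in either set.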
